A study of Silurus asotus with 15 samples.

Results

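The loci described here are the coagulation factors, fibrinogen chains and serpins of Silurus asotus, the Amur catfish. They were chosen by words in the deposited protein names: coagulation factor, fibrinogen alpha, beta or gamma, prothrombin, plasminogen, antithrombin, serpin, antitrypsin, kininogen, kallikrein, von Willebrand factor or vitamin K-dependent protein. The names gave 41 loci of the 25089 genes in the expression table. The rule reads names alone. They comprised 3 fibrinogen chains, 6 protease zymogens, 3 cofactors or cross-linkers, 1 tissue factor, 3 vitamin K-dependent anticoagulants, 1 kininogen, 6 loci of the plasminogen system, 2 von Willebrand factor models, 11 serpins and 5 loci that share only a word of the name. Adult fish gave 15 poly(A) RNA libraries, 1 for each tissue, and neither sex, treatment nor the number of fish was stated. Liver was set against heart, spleen, kidney and head kidney. Those 4 libraries stood for vessel and thrombocyte sources because no vessel or sorted blood library was made. The other 10 libraries were pancreas, ovary, testis, pituitary, skin, maxillary barbel, mandibular barbel, muscle and the libraries labelled gill and brain.

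Blood clotting runs as a cascade in which each protease is made as an inactive zymogen and is cut by the one before it. Tissue factor with factor VII starts the cascade, factors IX and X carry it on with the cofactors VIII and V, and thrombin then cuts fibrinogen into fibrin, which factor XIII cross-links. Plasmin dissolves the clot, and serpins, protease inhibitors that trap their target in a covalent complex, hold many of these enzymes in check. In vertebrates hepatocytes secrete most of the soluble factors. In mammals von Willebrand factor and factor VIII come largely from endothelium. The nucleated thrombocytes of fish do the work of mammalian platelets.

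Expression was given as FPKM, the number of fragments scaled to the length of the gene model and to the fragments mapped in the library. There were no replicates, so no spread could be estimated, and the calls below only compare sizes between single libraries. Summed FPKM was lowest in skin, at 239905, and highest in pancreas, at 738341. Low values came in coarser steps in muscle, where the step was 4.17 times the smallest, and in skin and both barbels, where it was 5.75 to 6.31 times, so a value near 0 carries least information there. Labels were checked against marker genes. The 12 matched hepatocyte markers summed to 57955 FPKM in liver, against 8.90 in heart, 319 in spleen, 51.3 in kidney and 76.8 in head kidney. All 4 neuron markers were at 1 FPKM or more in the library labelled gill, where they summed to 3414 FPKM, and none reached 1 FPKM in the library labelled brain, where they summed to 0.898 FPKM. The library labelled brain instead held 2029 FPKM of keratinocyte markers, against 2162 FPKM in skin. The make-up of these sums differed. KRT8, also at 845 FPKM in heart, had 829 in the library labelled brain and 36.9 in skin. KRT4 had 985 and 2087 FPKM, PPL 117 and 32.8, and EVPL 99.0 and 5.84. Both libraries went against their labels and are therefore called the libraries labelled gill and brain. The count of loci enriched in liver, a call defined below, was 15 with and without them. The calls higher in liver and higher outside liver do not use these libraries, so leaving them out could not change those counts.

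A locus was called higher in liver when its liver FPKM was at least 5 and its log2(FPKM + 1) was at least 2 above the highest of heart, spleen, kidney and head kidney. It was called higher outside liver when the highest of those 4 libraries met the same rule over liver. The loci split evenly, with 17 higher in liver, 17 higher outside liver and 7 neither. Of all genes, 2.3% were higher in liver and 19.2% were higher outside liver. The share higher in liver was 41.5% of the loci, far above its background. The share higher outside liver was also 41.5%, above a background that was itself wide. Taking the highest of 4 libraries favours the call outside liver, for these loci and for all genes. Both backgrounds took in genes too low to meet the minimum FPKM. Of the 25089 genes, 16949 reached 5 FPKM in at least 1 library, against 40 of the 41 loci. The 4805 genes higher outside liver all lie among those 16949, where their share is larger than 19.2%. The excess of the loci outside liver is smaller against that share. Repeated names also counted: with 1 locus per name, 30.3% of 33 loci were higher outside liver. The median of log2(FPKM + 1) in liver minus the highest of the 4 libraries was -0.65 over the 41 loci, with a range from -8.07 to 8.85, and -0.93 over all genes. Rescaling the libraries by median ratios moved the median of all genes by 0.68, and the called loci then numbered 18 higher in liver and 10 higher outside. The share higher in liver among called loci was 64.3% on that scale, against 50% as deposited, and over all genes it was 28.4% on that scale, against 10.7% as deposited.

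Liver enrichment was the stricter call, for an FPKM of at least 5 and a log2(FPKM + 1) at least 5-fold above the next highest of all 15 libraries. It was met by 15 of the 41 loci, or 36.6%, against 1.36% of all genes. Enrichment in any library was met by 17 of the loci, against 9.38% of all genes. The 2 not in liver were factor VIII in heart, where 0.411% of genes were enriched, and the factor IX-like locus in pancreas, where 0.347% were. An FPKM of at least 1 in liver was reached by 27 loci, or 65.9%, against 41.3% of all genes. The loci together made up 12.7% of the summed FPKM of liver, 9.98% being fibrinogen, against 0.113% to 0.265% in the other 14 libraries. Of the 41 loci, 16 were highest in liver, 5 in skin, 4 in heart and 4 in the library labelled brain. The remaining 12 were highest in pituitary, testis, spleen, head kidney, pancreas or the library labelled gill. The 5 in skin were all named serpin clade B member 1 and may not be separate genes. The highest library was not counted over all genes, so these counts have no background.

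**Figure D1:**
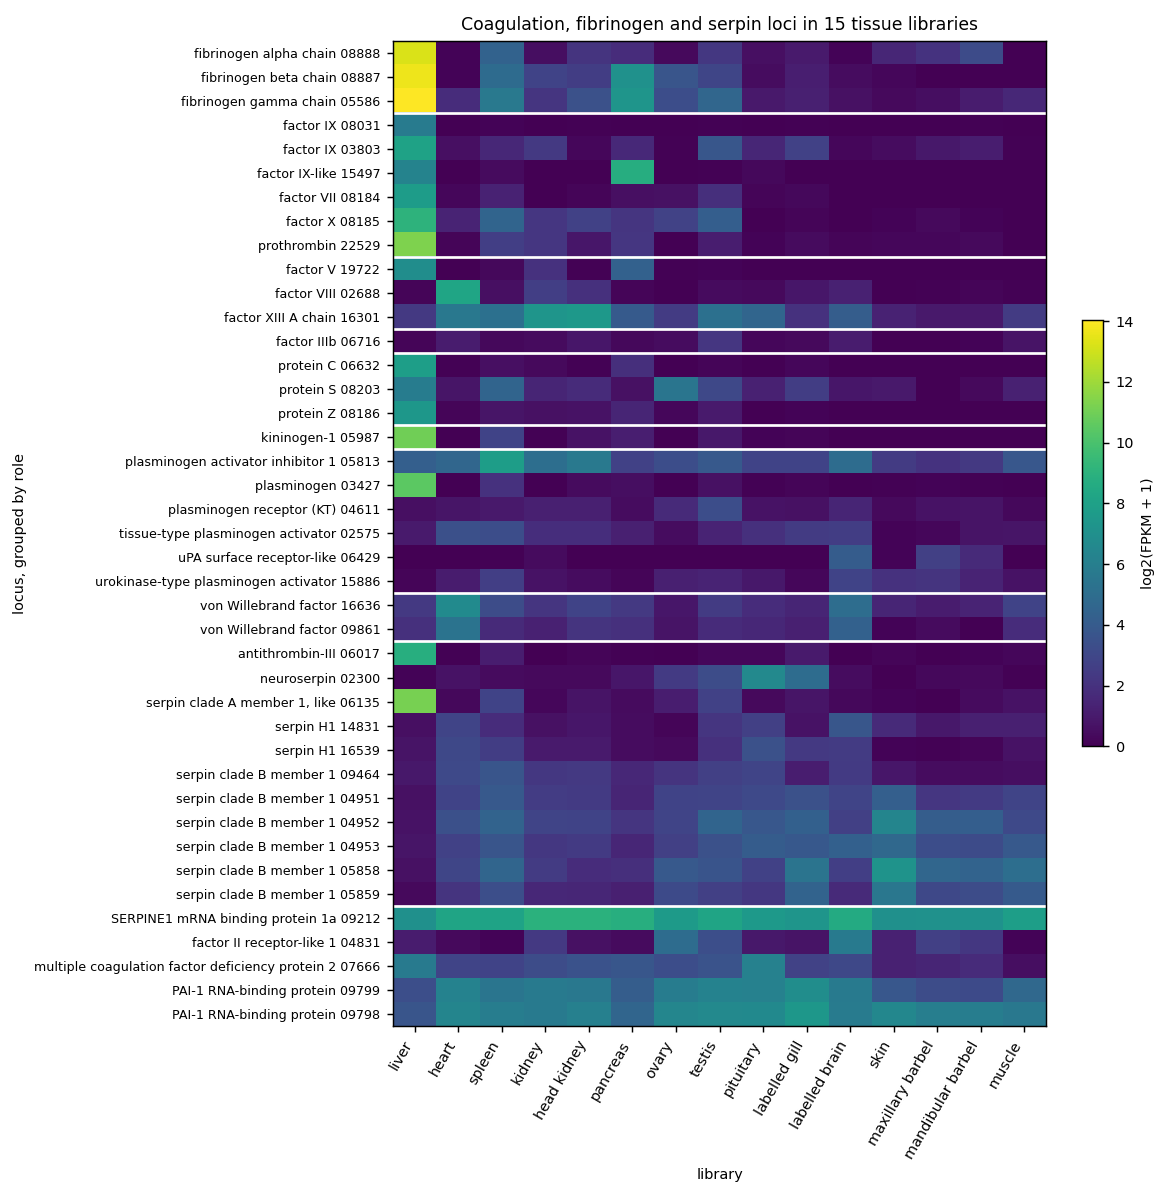
Heat map of log2(FPKM + 1) for the 41 loci (rows, grouped by role with white lines, each ending in the last digits of its locus tag) in the 15 libraries (columns, 1 library each). Fibrinogen, the zymogens, plasminogen, kininogen, antithrombin-III and the clade A serpin are bright in the liver column, while factor VIII, factor XIII A, von Willebrand factor and the clade B serpins are dark there.

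Set against liver in turn, the 4 libraries gave like numbers of loci higher in liver and unlike numbers higher outside. Liver was higher than heart at 18 loci, where 2.99% of all genes were, and heart was higher at 13, where 8.57% were. Liver was higher than spleen at 17 loci, against 2.98% of all genes, and spleen was higher at 12, against 10.1%. Liver was higher than kidney at 18 loci, against 3% of all genes, and kidney was higher at 5, or 12.2% of the loci, against 9.33%. Liver was higher than head kidney at 18 loci, against 3.2% of all genes, and head kidney was higher at 4, or 9.76% of the loci, against 10.1%. The shares higher in kidney and in head kidney were thus near their backgrounds. These comparisons share the liver library.

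**Figure D2:**
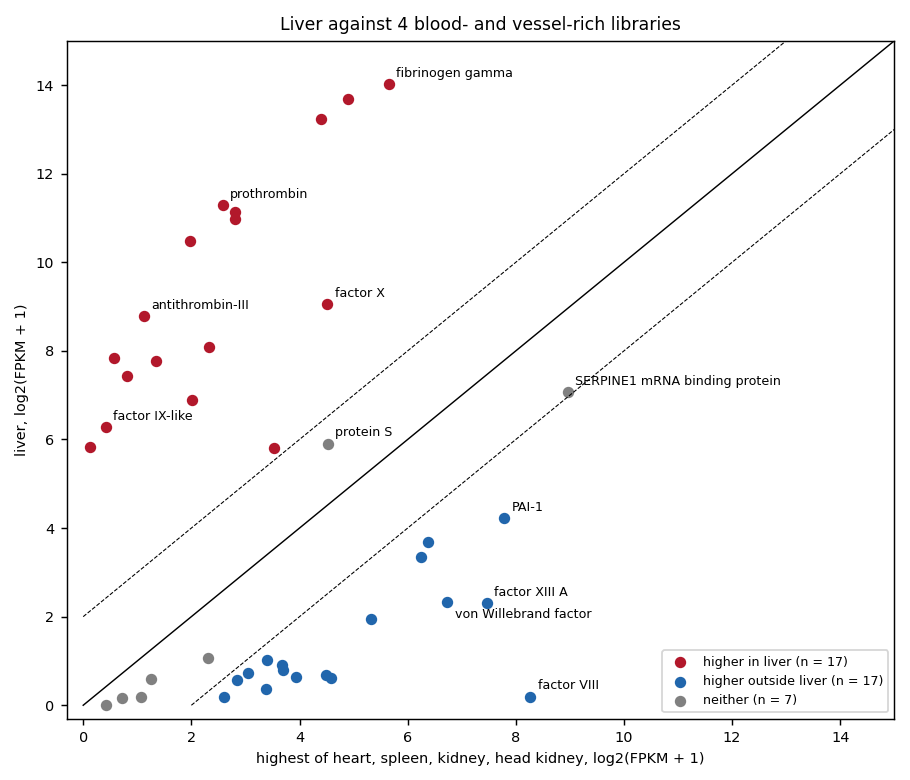
Scatter plot of the 41 loci, with log2(FPKM + 1) in liver on the vertical axis and the highest of heart, spleen, kidney and head kidney on the horizontal axis. The solid line marks equal values and the dashed lines a difference of 2. The 17 red loci lie above the upper dashed line, with the fibrinogen chains farthest up, and the 17 blue loci lie below the lower dashed line, with factor VIII farthest right of the loci that are near 0 in liver.

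The fibrinogen chains were the most abundant of these loci. Fibrinogen is a dimer of alpha, beta and gamma chains and is the precursor of the fibrin mesh. The alpha chain (C0J50_08888; scaffold1796, 3345467 to 3351002, minus strand) had 9695 FPKM in liver, against 0.107 in heart, 20.01 in spleen, 0.412 in kidney and 3.25 in head kidney. The beta chain (C0J50_08887; scaffold1796, 3335527 to 3338994, plus strand) had 13206 FPKM in liver, against 0.0799 in heart, 28.7 in spleen, 5.97 in kidney and 4.94 in head kidney. The gamma chain (C0J50_05586; scaffold500, 2467965 to 2472506, minus strand) had 16650.1 FPKM in liver, against 2.46 in heart, 49.3 in spleen, 3.53 in kidney and 10.3 in head kidney. All 3 were enriched in liver, against 1.36% of all genes, and spleen was the highest of the 4 libraries for each. On the log2(FPKM + 1) scale the differences were 8.85, 8.80 and 8.37.

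The chains kept different proportions in different libraries. In liver, per coding length, the gamma chain stood at 1.72 times and the beta chain at 1.36 times the alpha chain. In spleen the same ratios were 2.46 and 1.43, and in head kidney 3.17 and 1.52. Pancreas departed from this, with 2.41 FPKM of alpha beside 135 of beta and 159.7 of gamma, so that gamma was 66.3 times alpha while gamma over beta was 1.18. In ovary gamma was 34.4 times alpha, from 0.262 FPKM of alpha, 11.8 of beta and 9.01 of gamma. The barbels ran the other way: mandibular barbel had 8.18 FPKM of alpha, 1.08 of gamma and beta listed at 0, and maxillary barbel had 3.09, 0.431 and 0. Kidney and heart also departed from liver, with gamma at 8.56 and 23.0 times alpha, as did testis at 6.25 and skin at 0.147 times. Some of these ratios rest on values near 0 and carry little information. Alpha was at 0.412 FPKM in kidney and 0.107 in heart, and gamma at 0.272 in skin, where low values are coarse. Across the 15 libraries the Pearson correlation of log2(FPKM + 1) was 0.98 between beta and gamma, 0.84 between alpha and beta and 0.85 between alpha and gamma. Over the 14 libraries without liver, a choice made after the values were seen, it was 0.94, 0.35 and 0.43.

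The 6 protease zymogens were all higher in liver, against 2.3% of all genes, and 5 were enriched there, against 1.36%. Prothrombin (C0J50_22529; scaffold178268, 120069 to 127067), the precursor of thrombin, was the highest of them, with 2499 FPKM in liver, against 0.132 in heart, 4.99 in spleen, 3.70 in kidney and 0.808 in head kidney. Factor X (C0J50_08185; scaffold1278, 1404443 to 1412590), which cuts prothrombin, had 534 FPKM in liver, against 1.59 in heart, 21.9 in spleen, 3.68 in kidney and 5.67 in head kidney, and testis had 17.6. Factor X stood out among the liver-enriched loci for its spleen value, which was 4.10% of its liver value. Factor VII (C0J50_08184; scaffold1278, 1379904 to 1403755), the partner of tissue factor, had 218 FPKM in liver, against 0.200 in heart, 1.54 in spleen, 0.0334 in kidney and 0.149 in head kidney. Its model, with both ends open, spans 2592 coding bases and carries a trypsin domain but no annotated GLA or EGF-like domain, the light-chain domains found in factor VII of other vertebrates. The FPKM of that locus therefore rests on a model that may be incomplete or joined.

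Factor IX, the protease that acts with factor VIII, was named at 3 loci with 3 different patterns. The locus C0J50_08031 (scaffold1156, 2975837 to 2979440) had 55.5 FPKM in liver, against 0 in heart, 0.0903 in spleen, 0 in kidney and 0.0434 in head kidney, and 9 libraries were listed at 0. The locus C0J50_03803 (scaffold257, 3534902 to 3537965) had 272 FPKM in liver, against 0.485 in heart, 1.99 in spleen, 4.02 in kidney and 0.196 in head kidney, with 12.4 in testis and 5.54 in the library labelled gill. The factor IX-like locus C0J50_15497 (scaffold178137, 2290291 to 2309655) had 76.5 FPKM in liver, against 0 in heart, 0.337 in spleen, 0.00439 in kidney and 0.00841 in head kidney, but was highest in pancreas at 432 FPKM. That was 5.64 times its liver value. It was the only locus of the 41 that was highest in pancreas, and its annotation adds a Kazal domain, a fold known from protease inhibitors, to the GLA, EGF-like and trypsin domains. The exocrine pancreas markers, 6 matched of 10 listed, summed to 2.91 FPKM in liver and to 129307 FPKM in pancreas. Whether exocrine RNA contributed to the liver value of C0J50_15497 was not tested.

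The cofactors and the cross-linking enzyme did not share a pattern. Factor V (C0J50_19722; scaffold178212, 4505014 to 4518728), the cofactor of factor X, had 118 FPKM in liver, against 0.0198 in heart, 0.224 in spleen, 3.04 in kidney and 0.0435 in head kidney. It was enriched in liver, but pancreas had 19.7 FPKM, or 16.7% of the liver value, the highest such share among the liver-enriched loci. Factor VIII (C0J50_02688; scaffold145, 2773330 to 2787579), the cofactor of factor IX and close to factor V in domain structure, had 0.146 FPKM in liver, against 307 in heart, 0.466 in spleen, 5.15 in kidney and 2.90 in head kidney. Heart was 59.7 times kidney, the next library, and none of the other 10 libraries was above 1.40 FPKM. The difference of liver from heart was -8.07 on the log2(FPKM + 1) scale, the lowest of the 41 loci. Without the heart library the difference was -2.42, from kidney, and factor VIII kept its call just past the threshold.

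Factor XIII A (C0J50_16301; scaffold178163, 608603 to 618154), the transglutaminase subunit that cross-links fibrin, had 3.94 FPKM in liver, against 47.6 in heart, 34.8 in spleen, 155 in kidney and 175 in head kidney. All 4 libraries were above liver, and kidney and head kidney were above the other 13. Testis had 34.9 FPKM, pituitary 22.6 and the library labelled brain 16.9. In mammals this subunit is made by cells of bone marrow origin, such as megakaryocytes and macrophages. The 13 matched thrombocyte markers, among them the integrin subunit ITGA2B, summed to 22.9 FPKM in liver, against 205 in heart, 181 in spleen, 281 in kidney and 280.2 in head kidney. None of the 13 was listed at 0 in any of these 5 libraries, and all 13 reached 1 FPKM in heart, kidney and head kidney. The 4 macrophage markers summed to 34.7 FPKM in liver, against 394 in heart, 2309 in spleen, 389 in kidney and 479 in head kidney. The 2 granulocyte markers summed to 32.2 FPKM in liver, against 371 in heart, 242 in spleen, 4236 in kidney and 5150 in head kidney. The 4 erythrocyte markers summed to 144 FPKM in liver, against 2176 in heart, 1030 in spleen, 5558 in kidney and 4369 in head kidney. The part of any of these cell types in the factor XIII A values was not tested. In bulk tissue, fewer cells of a type and less RNA per cell cannot be told apart.

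Tissue factor, the membrane receptor that starts clotting on contact with blood, was represented by the locus named coagulation factor IIIb (C0J50_06716; scaffold588, 5278290 to 5282186). It had 0.132 FPKM in liver, against 0.252 to 1.08 in the 4 libraries. It was called in neither direction, and its highest value was 3.62 FPKM in testis. A different tissue factor locus, which the name rule did not take, was far more abundant. That locus (C0J50_22761), listed with the wider pathway, had 3.51 FPKM in liver, against 119 in heart, 1.28 in spleen, 2.80 in kidney and 0.356 in head kidney. Its highest libraries were those labelled gill, at 147 FPKM, and heart, with 118 in the library labelled brain and 74.4 in mandibular barbel.

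The vitamin K-dependent anticoagulants differed among themselves. Protein C (C0J50_06632; scaffold588, 3545821 to 3557110), which inactivates factors V and VIII, had 229.6 FPKM in liver, against 0.0560 in heart, 0.492 in spleen, 0.285 in kidney and 0.0701 in head kidney. Protein Z (C0J50_08186; scaffold1278, 1413850 to 1418205), a cofactor for an inhibitor of factor X, had 171 FPKM in liver, against 0.145 in heart, 0.751 in spleen, 0.570 in kidney and 0.578 in head kidney. Both were enriched in liver. Protein S (C0J50_08203; scaffold1278, 1683294 to 1704126), the cofactor of protein C, had 59.0 FPKM in liver, against 0.750 in heart, 21.9 in spleen, 1.71 in kidney and 2.30 in head kidney, and ovary had 43.1. Its difference of 1.39 on the log2(FPKM + 1) scale met neither call, and liver was 1.37 times ovary. Without the spleen library, a choice made after the values were seen, the difference was 4.19 and protein S was higher in liver. It was also higher in liver under median-ratio scaling, at 2.62.

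Kininogen-1 (C0J50_05987; scaffold505, 5460157 to 5464836), the precursor of bradykinin and in mammals a cofactor of contact activation, had 2010.2 FPKM in liver, against 0 in heart, 5.99 in spleen, 0.0665 in kidney and 0.631 in head kidney. It was listed at 0 in 6 libraries and was at or above 1 FPKM in 3.

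The plasminogen system was divided between liver and the other libraries. Plasminogen (C0J50_03427; scaffold223, 2299912 to 2315746), the zymogen of plasmin, had 1425 FPKM in liver, against 0.0174 in heart, 2.94 in spleen, 0.0330 in kidney and 0.353 in head kidney, a difference of 8.50 on the log2(FPKM + 1) scale. Tissue-type plasminogen activator (C0J50_02575), which cuts plasminogen on fibrin, had 1.05 FPKM in liver, against 9.58 in heart, 8.77 in spleen, 2.56 in kidney and 2.63 in head kidney. Urokinase-type plasminogen activator (C0J50_15886), which acts mostly at cell surfaces, had 0.135 FPKM in liver, against 1.14 in heart, 5.05 in spleen, 0.584 in kidney and 0.366 in head kidney, and 6.18 in the library labelled brain. Both activators were higher outside liver, at differences of -2.37 and -2.41, close to the threshold of -2. Neither kept that call with a pseudocount of 5 or under median-ratio scaling, and the urokinase-type locus also lost it without the spleen library, at -0.91.

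Plasminogen activator inhibitor 1 (C0J50_05813; scaffold501, 1540406 to 1560320), the main serpin inhibitor of both activators, had 17.7 FPKM in liver, against 23.6 in heart, 219 in spleen, 32.4 in kidney and 49.6 in head kidney. All 4 libraries were above liver, but the call rested on spleen: the difference of -3.55 became -1.43 without that library. It was at 1 FPKM or more in all 15 libraries. The 15 matched endothelium markers summed to 34.2 FPKM in liver, against 273 in heart, 418 in spleen, 89.6 in kidney and 112 in head kidney. Testis had 180 FPKM of these markers and the library labelled gill 134, both above kidney and head kidney. PLVAP and CLDN5 carried 299.97 FPKM of the spleen sum, and 8 of the 15 markers were higher in heart than in spleen. None of the 15 was at 0 in liver or in the 4 libraries set against it. The part of endothelium in the spleen value of the inhibitor was not tested. The remaining loci met neither call. The urokinase receptor-like locus (C0J50_06429), a short model of 360 coding bases, was listed at 0 in liver and reached 5.34 FPKM in maxillary barbel and 16.2 in the library labelled brain. The plasminogen receptor (KT) (C0J50_04611) had 0.512 FPKM in liver and at most 9.09, in testis.

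**Figure D3:**
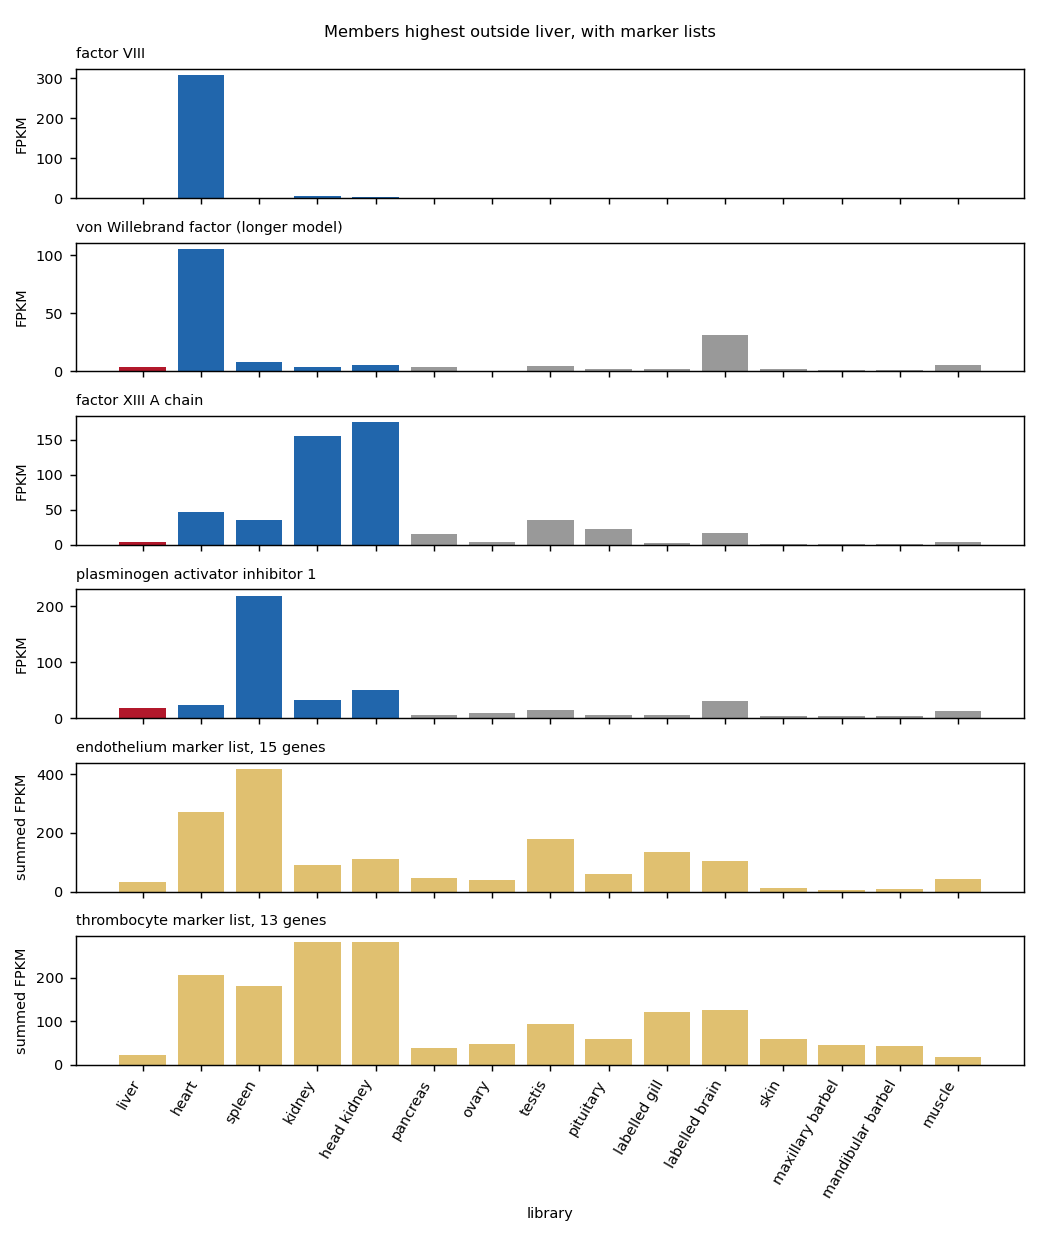
Bar charts of FPKM in the 15 libraries for factor VIII, the longer von Willebrand factor model, factor XIII A and plasminogen activator inhibitor 1, with summed FPKM of 15 endothelium and 13 thrombocyte markers beneath. Red marks liver, blue heart, spleen, kidney and head kidney, grey the other 10 libraries and gold the marker sums. Each of the 4 loci is highest in a blue library, but the library differs: heart for factor VIII and von Willebrand factor, head kidney for factor XIII A and spleen for the inhibitor.

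Von Willebrand factor, the large adhesive protein that tethers platelets to damaged vessel wall and carries factor VIII in plasma, was named at 2 loci. The longer model (C0J50_16636; scaffold178169, 397796 to 419464; 7476 coding bases, both ends open) had 4.04 FPKM in liver, against 105 in heart, 8.49 in spleen, 3.56 in kidney and 5.96 in head kidney, and the library labelled brain had 31.7. The shorter model (C0J50_09861; scaffold6404, 593 to 2523; 984 coding bases) had 2.84 FPKM in liver, against 38.8 in heart, 2.24 in spleen, 1.44 in kidney and 3.33 in head kidney, and the library labelled brain had 19.5. The shorter model is the only locus on its scaffold and may be a piece of the same gene, so the pair cannot be counted as separate genes. The 2 models followed the same order in heart and the library labelled brain, and their Pearson correlation over 15 libraries was 0.95. Both calls rested on heart: without it the differences of -4.40 and -3.38 became -0.91 and -0.17. The full list of 15 endothelium markers summed to 273 FPKM in heart and 418 in spleen, with 8 higher in heart and 7 in spleen. Without PLVAP and CLDN5, left out after their values were seen, the other endothelium markers summed to 181 FPKM in heart and 118 in spleen. Among these others, FLT1, FLT4, EGFL7, ROBO4 and STAB1 were still higher in spleen, and CDH5 was the highest in heart. The endothelial marker cadherin CDH5 had 6.42 FPKM in liver, against 80.5 in heart, 29.2 in spleen, 9.05 in kidney and 13.5 in head kidney. CDH5 alone thus made up 80.5 of the 181 FPKM in heart. The order of heart and spleen depended on which endothelium markers were summed. The part of endothelium in the von Willebrand factor values was not tested.

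Factor VIII and von Willebrand factor were both highest in heart, but to different degrees. Heart was 59.7 times the next library for factor VIII, and 3.33 and 1.99 times the next for the von Willebrand models. In the library labelled brain factor VIII had 1.40 FPKM. The 4 matched cardiomyocyte markers summed to 8427 FPKM in heart, against 25.7 in liver, 16.6 in spleen, 3.03 in kidney and 0.684 in head kidney. Skin had 77.7 FPKM of these markers and the library labelled brain 5.43. The part of cardiomyocytes or endothelium in the factor VIII and von Willebrand factor values was not tested. Among 15526 ranked genes, those closest to the longer von Willebrand model by Pearson correlation of log2(FPKM + 1) over the 15 libraries were, after the shorter model, a DMBT1-like locus (0.93), PHLDB1 (0.92), periostin (0.92) and a GPI-linked ADP-ribosyltransferase (0.91). Those closest to the shorter model, after the longer one, were PHLDB1 (0.94), the same transferase locus (0.90), VEGFA (0.90) and another transferase locus (0.89). These are descriptions over libraries in which heart and the library labelled brain were high.

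Of the 11 serpins, 2 loci were higher in liver and 8 higher outside, against 2.3% and 19.2% of all genes. Of the 8, 6 carry the same clade B name and may not be separate genes. Antithrombin-III (C0J50_06017; scaffold505, 6227400 to 6236176), the inhibitor of thrombin and factor X, had 438 FPKM in liver, against 0.0594 in heart, 1.18 in spleen, 0.0313 in kidney and 0.145 in head kidney. The clade A member 1-like serpin (C0J50_06135; scaffold558, 1284867 to 1286390), of the clade that holds alpha-1 antitrypsin, the plasma inhibitor of neutrophil elastase, had 2247 FPKM in liver, against 0.254 in heart, 5.996 in spleen, 0.209 in kidney and 0.697 in head kidney. Liver was at least 372 times the next library for each. Neuroserpin (C0J50_02300; scaffold124, 4082059 to 4088057), a secreted inhibitor of tissue-type plasminogen activator in the nervous system of mammals, had 0.114 FPKM in liver, against 0.257 to 0.634 in the 4 libraries. It was highest in pituitary, at 95.8 FPKM, with 29.6 where the label was gill and 0.365 where it was brain. The 4 neuron markers summed to 337 FPKM in pituitary and 3414 in the library labelled gill, and to 0.898 where the label was brain.

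Serpin H1, the collagen chaperone of the endoplasmic reticulum that does not inhibit proteases, was named at 2 loci. The locus C0J50_16539 had 0.646 FPKM in liver, against 7.27 in heart, 4.79 in spleen, 0.995 in kidney and 0.992 in head kidney, and 9.999 in pituitary. The locus C0J50_14831 had 0.494 FPKM in liver, against 6.20 in heart, 2.44 in spleen, 0.523 in kidney and 0.812 in head kidney, and 12.2 in the library labelled brain. Both were higher outside liver, at -2.33 and -2.27. Without heart the differences were -1.81 and -1.20, and with a pseudocount of 5 or median-ratio scaling neither locus kept the call.

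Clade B member 1 serpins are intracellular inhibitors of neutrophil proteases in mammals, and 6 loci carried the name. In liver they had 0.298 to 0.887 FPKM. All 6 were higher outside liver, against 19.2% of all genes, at differences from -2.77 to -3.96. Spleen was the highest of the 4 libraries for each of them, at 9.45 to 23.0 FPKM. Without spleen the loci C0J50_04953 and C0J50_05859 lost the call, at -1.93 and -1.74, under median-ratio scaling C0J50_09464 lost it, and with a pseudocount of 5 only C0J50_04952 and C0J50_05858 kept it. Over all 15 libraries 5 of the 6 were highest in skin. The locus C0J50_05858 had 0.535 FPKM in liver, against 6.60 in heart, 23.0 in spleen, 4.404 in kidney and 2.43 in head kidney, and it reached 146 in skin and 41.8 in the library labelled gill. The locus C0J50_04952 had 0.610 FPKM in liver, against 9.76 in heart, 21.5 in spleen, 6.25 in kidney and 6.09 in head kidney, with 81.9 in skin. The locus C0J50_04951 had 0.544 FPKM in liver, against 5.94 in heart, 14.3 in spleen, 4.57 in kidney and 4.16 in head kidney, with 18.3 in skin. Each of these loci was thus lowest in liver and highest in skin, though C0J50_05858 is a short model of 393 coding bases. The locus C0J50_04953 had 0.729 FPKM in liver, against 5.58 in heart, 11.9 in spleen, 3.92 in kidney and 4.31 in head kidney, with 26.1 in skin. The locus C0J50_05859 had 0.298 FPKM in liver, against 3.34 in heart, 9.45 in spleen, 1.97 in kidney and 1.79 in head kidney, with 46.5 in skin. Only C0J50_09464 was highest in spleen, with 0.887 FPKM in liver, against 7.46 in heart, 11.8 in spleen, 3.91 in kidney and 4.12 in head kidney, and 0.796 in skin.

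The clade B loci are not all sure to be separate genes. C0J50_04951, C0J50_04952 and C0J50_04953 lie in a row on the minus strand of scaffold383, with 3733 and 12476 bases between them, and have 1284 to 1287 coding bases each. The other 3 have 258, 393 and 441 coding bases and are each the only locus on a small scaffold. Pearson correlations between pairs of the 6 over the 15 libraries ran from -0.32 to 0.99. The highest was between the short models C0J50_05858 and C0J50_05859, and the lowest between C0J50_09464 and C0J50_05858. The spread of spleen and skin values within the trio, 11.9 to 21.5 FPKM and 18.3 to 81.9 FPKM, was narrower in spleen than in skin. Reads shared between such similar models could have been split by the counting.

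**Figure D4:**
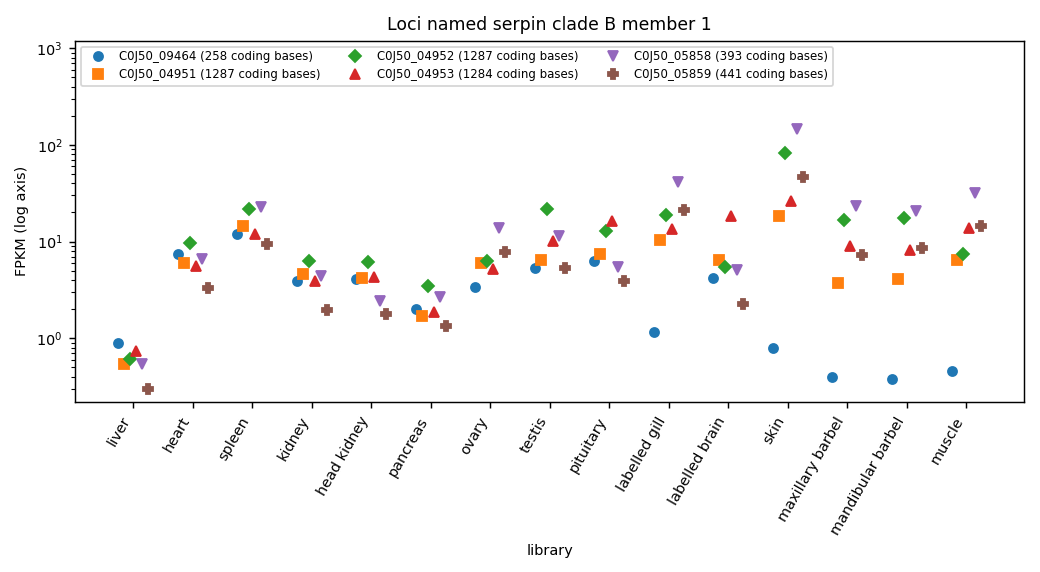
FPKM on a log axis of the 6 loci named serpin clade B member 1 in the 15 libraries, 1 symbol per locus. All 6 are below 1 FPKM in liver. In skin 5 loci stand between 18.3 and 146 FPKM while C0J50_09464, the shortest model, is at 0.796.

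Another 5 loci were taken by a word in their name and are not clotting factors or serpins. Multiple coagulation factor deficiency protein 2 (C0J50_07666), which in mammals helps carry factors V and VIII out of the endoplasmic reticulum, had 54.8 FPKM in liver, against 6.21 in heart, 6.08 in spleen, 8.73 in kidney and 10.5 in head kidney. It was higher in liver, at 2.27, though pituitary was highest at 71.7 FPKM, and it lost the call with a pseudocount of 5, at 1.94. The thrombin receptor-like locus (C0J50_04831) had 1.09 FPKM in liver and at most 3.97, in kidney, among the 4 libraries, with 53.6 in the library labelled brain and 29.6 in ovary. The 3 loci named for proteins that bind the RNA of plasminogen activator inhibitor 1 were at 5 FPKM or more in every library. C0J50_09798 had 11.8 FPKM in liver, against 82.4 in heart, 61.2 in spleen, 54.0 in kidney and 69.0 in head kidney. C0J50_09799 had 9.14 FPKM in liver, against 74.7 in heart, 43.2 in spleen, 51.5 in kidney and 47.4 in head kidney. Both were higher outside liver as deposited and neither was under median-ratio scaling. C0J50_09212 had 133 FPKM in liver, against 281 to 499 in the 4 libraries, and met neither call.

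Liver-enriched loci were present at low levels in other libraries, and their levels are given beside those of hepatocyte markers. Low shares of the loci outside liver follow from the enrichment call that selected them, while the markers were not selected in that way, so the medians are a description only. In spleen the 15 liver-enriched loci had a median of 0.267% of their liver FPKM, with a range from 0.163% to 4.10%, and the 12 hepatocyte markers a median of 0.253%. The medians of loci and markers were 0.0136% and 0.0101% in heart, 0.0212% and 0.0144% in kidney, and 0.0367% and 0.0457% in head kidney. In testis they were 0.0691% and 0.0633%. Pancreas had 0.229% for the loci and 0.0411% for the markers, and ovary had 0.0283% and 0.00278%. The loci with the highest shares were factor X in spleen at 4.10%, factor V in pancreas at 16.7% and factor IX C0J50_03803 in testis at 4.55%. The marker CPS1, which had 2.70 FPKM in liver, against 1.33 in heart, 1.17 in spleen, 35.1 in kidney and 39.4 in head kidney, accounted for the highest marker shares. Whether RNA from liver cells contributed to the low values was not tested.

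**Figure D5:**
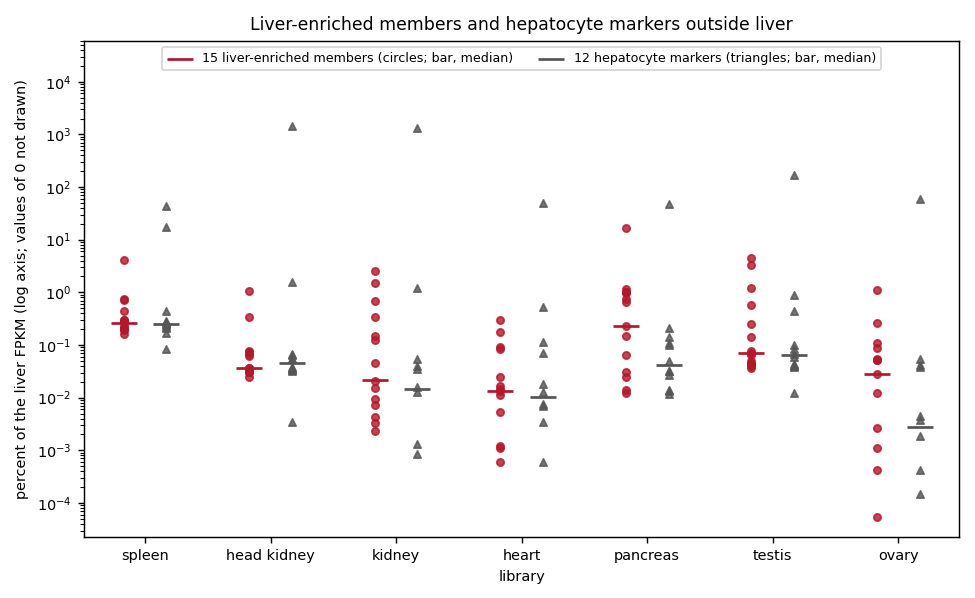
Percent of the liver FPKM (log axis) of the 15 liver-enriched loci (red circles) and 12 hepatocyte markers (grey triangles) in 7 other libraries, with bars at the medians. The medians are 0.267% and 0.253% in spleen and 0.229% and 0.0411% in pancreas, and the loci were selected for low values outside liver. Values of 0 are not drawn but count in the medians.

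Several of the liver loci are neighbours on the assembly. Factor VII, factor X and protein Z follow each other on the plus strand of scaffold1278, with 687 and 1259 bases between them, and had 218, 534 and 171 FPKM in liver. Protein S lies 265088 bases further on the minus strand, with 16 loci between, and did not share the liver call. The fibrinogen beta and alpha chains lie 6472 bases apart on opposite strands of scaffold1796, while the gamma chain is on another scaffold. Kininogen-1 and antithrombin-III share scaffold505 with 29 loci between them. The 3 fibrinogen chains, on 2 scaffolds, stood within 1.72 times of each other in liver.

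The wider pathway was read from a list of 26 gene symbols, of which 25 matched 42 loci by protein name. Of these, 17 were higher in liver, or 40.5% against 2.3% of all genes, and 14 were enriched there, or 33.3% against 1.36%. Another 11 were higher outside liver, or 26.2% against 19.2% of all genes, and 14 were neither. Their median difference was 0.42 on the log2(FPKM + 1) scale, against -0.93 over all genes. Among the soluble plasma proteins, carboxypeptidase B2, which protects fibrin from plasmin, had 141 FPKM in liver and at most 0.367 in the 4 libraries, and histidine-rich glycoprotein had 1227 and at most 2.59. ADAMTS13, the protease that trims von Willebrand factor, had 9.64 FPKM in liver and at most 0.332 in the 4 libraries. The enzymes that make the vitamin K-dependent proteins functional were also higher in liver than in the 4 libraries. VKORC1 had 67.6 FPKM against at most 1.296 there, and GGCX 39.3 against at most 8.28. Neither was enriched in liver, as VKORC1 had 29.5 FPKM in pituitary and GGCX 23.2 in ovary.

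Other loci of the list were higher outside liver or met neither call. The thrombomodulin-like loci had 0.900 and 0.974 FPKM in liver, against 32.1 in heart and 15.1 in spleen, their highest of the 4 libraries. Tissue factor pathway inhibitor 2 had 1.70 FPKM in liver, against 91.1 in heart. Tissue factor pathway inhibitor, which blocks factor VII with tissue factor, had 21.0 FPKM in liver, against 55.7 in heart, 76.8 in spleen, 13.4 in kidney and 9.89 in head kidney, and met neither call. Transcription factors known to drive liver genes differed. HNF4A had 42.9 FPKM in liver and at most 1.38 in the 4 libraries, while CEBPA had 17.7 FPKM in liver, against 187 in head kidney.

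Protein domains, which the name rule did not use, took in further relatives. The serpin domain was annotated at 24 loci, 12 of them among the 41. Of those 12, which include plasminogen activator inhibitor 1, 2 were higher in liver and 9 higher outside, against 2.3% and 19.2% of all genes. Of the other 12, 9 were higher in liver and 1 higher outside. The name rule had not taken these because most carry the name of their plasma role rather than the word serpin. The clade A locus C0J50_06136, next to C0J50_06135, had 6444 FPKM in liver, and plasma protease C1 inhibitor 1819.5, with spleen highest of the 4 libraries for both, at 16.3 and 4.02. Heparin cofactor 2, an inhibitor of thrombin, had 466 FPKM in liver, the alpha-2-antiplasmin loci, which inhibit plasmin, 387 and 219, and an unnamed serpin-domain locus (C0J50_11792) 1286. Pigment epithelium-derived factor, a serpin that does not inhibit proteases, had 7.61 FPKM in liver, against 151 in spleen.

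The GLA domain, the calcium-binding part that vitamin K-dependent carboxylation modifies, was annotated at 14 loci. The 8 among the 41 were factors IX and X, prothrombin and proteins C, S and Z, and 7 of these 8 were higher in liver, protein S being the exception. Of the other 6, 1 was higher in liver and 1 higher outside. Over all genes the shares were 2.3% and 19.2%. GAS6, a relative of protein S that lies near it on scaffold1278, had 3.62 FPKM in liver, against 22.4 in spleen, the highest of the 4 libraries, and 74.1 in testis. The protein Z-dependent protease inhibitor was named at 2 loci. C0J50_22201 had 181 FPKM in liver and at most 1.32 in any other library, while C0J50_03487 had 152 in liver and 260.4 in the library labelled gill. The fibrinogen coiled coil domain was annotated at the 3 fibrinogen chains alone, whereas the fibrinogen C-terminal globular domain was annotated at 54 loci.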

How the data were processed

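Poly(A) RNA was purified from DNase-treated Trizol extracts and made into paired-end libraries, per the labels' protocols. The deposited table gives FPKM made by the authors for 25089 genes in 15 libraries. StringTie 1.3.4d was used, per the submitters' processing notes, while for the aligner and genome build the names were not given in the sources used here. A deposited annotation lists 25122 loci on 2648 scaffolds with protein names, and 25064 genes were found in it. Its spans are coding only, so FPKM rests on coding lengths, and 18 of the 41 loci have an open end. Names of paralogs are uncertain, and reads shared by near-identical copies could be split. No counts were given, so depth is unknown and no interval was computed.

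Each tissue was a group of 1. Calls used log2(FPKM + 1) with a pseudocount of 1, a minimum FPKM of 5, a 4-fold difference between liver and the highest of 4 libraries, and a 5-fold difference for enrichment. The same rules were applied to all genes. Every locus matched by name could be named. Values in liver and each of the 4 libraries were given for the called loci, and for protein S, chosen after its values were seen. For the other loci that met neither call, coagulation factor IIIb among them, ranges or the values of some libraries were given. Other pathway genes and markers came from lists matched by protein name. The members and lists were chosen with earlier results of these data known. Alternatives were other pseudocounts, minimums, scalings and folds, loci or libraries left out, and 1 locus per name. Python 3.11.15, pandas 2.3.3, numpy 2.4.6 and matplotlib 3.10.9 were used, and the calling code was tested on simulated data. In those data genes were raised in liver alone, so recovery of the call higher outside liver was not tested. Some genes of these lists are not reported here.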

Additional observations from a re-analysis of the deposited data

How the results depend on the processing

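The count of loci enriched in liver stayed between 14 and 16 under the alternatives, and that of loci higher in liver between 16 and 18. Detection in liver ran from 22 to 34 loci with the minimum used. The count higher outside liver, 17, was 9 with a pseudocount of 5, 9 with a minimum FPKM of 20, 10 under median-ratio scaling, 7 with a 10-fold rule and 10 of 33 with 1 locus per name, and 13 to 17 otherwise. On the median-ratio scale 24.4% of the loci and 9.51% of all genes were higher outside liver. With a pseudocount of 5 these shares were 22% and 7.95%, and with a minimum FPKM of 20 they were 22% and 9.75%. With a 10-fold rule they were 17.1% and 6.86%, and with 1 locus per name 30.3% and 19.2%. A pseudocount of 5 ended the call of 9 loci and median ratios that of 7. Rescaling to a common sum ended 1 call, of urokinase-type plasminogen activator, and no called locus changed direction. The plasminogen receptor (KT), which met neither call, went from -0.65 to 0.03 under median-ratio scaling. Without heart or without spleen, both chosen after seeing the data, 13 loci were higher outside liver. That was 31.7% of the loci, against 15.6% of all genes without heart and 15.7% without spleen. Without kidney and head kidney the counts were 17 and 17. No paired analysis was possible because each tissue has 1 library and no replicate numbers. Coarse steps in skin, barbels and muscle limit low values there.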
